A study of Rattus norvegicus with 6 samples.

Results

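Red blood cell transcripts were examined in RNA-Seq data of mural cells of the rat brain. The 7 genes encode adult globins (Hba-a1 and Hbb), a globin chaperone (Ahsp), the erythroid enzyme that starts haem synthesis (Alas2) and proteins of the red cell membrane (Slc4a1, Rhd and Epb42). They were chosen by their symbols, and all 7 were found among the 14607 genes of the table.

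The table describes 6 samples, 3 of vascular smooth muscle cells (VSMCs) and 3 of mid-capillary pericytes (mcPCs), isolated from the cortex of male Sprague-Dawley rats of 4 to 5 weeks. The labels name no mutation or treatment, rats were pooled in each of 3 isolations, and blood was washed out through the heart with buffer. VSMCs were purified from arterioles, after removal of CD31+ and CD11b+ cells, by positive sorting with a fluorescent lectin. The mcPCs were what remained of the filtrate after cells bound by antibodies to CD31, CD11b, GLAST and O4 had been taken out, and none of these antibodies is directed at red cells. The table gives the authors' means for each cell type and no value per sample, so no SD between isolations can be given and no test of a difference was run. Intervals below are exact 95% intervals for counting error only. In such sorted populations, fewer red cells and less RNA per red cell cannot be told apart.

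Mature mammalian red cells have no nucleus, but the youngest ones, the reticulocytes, still carry messenger RNA, most of it for globin. Haemoglobin is built of alpha and beta globin chains, each holding a haem group, whose synthesis starts with ALAS2 in erythroid cells. AHSP binds free alpha chains until they pair. SLC4A1, or band 3, exchanges chloride for bicarbonate and anchors the membrane to its skeleton, protein 4.2 (EPB42) binds band 3, and RHD belongs to the Rh blood group complex.

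The stretches upstream of these genes are shown because the factors that act on red cell genes are known to bind there. The RefSeq promoter table of GRCr8 holds windows for 5 of the 7 genes, and not for Ahsp and Slc4a1. Each window ends at the base before the gene's start and is written 5′ to 3′ on the strand of the gene. Capitals mark the motifs searched on both strands, which were the GATA forms AGATAA or else AGATAG, with TGATAA or else TGATAG, then CACCC with its longer form CCACACCC, the CCAAT box and the TATAA box. The windows are chr10:15842581-15842830 on the minus strand for Hba-a1, chr1:167663722-167663971 on the minus strand for Hbb, chrX:22895200-22895449 on the plus strand for Alas2, chr5:152370950-152371199 on the plus strand for Rhd and chr3:128451684-128451933 on the minus strand for Epb42.
Hba-a1: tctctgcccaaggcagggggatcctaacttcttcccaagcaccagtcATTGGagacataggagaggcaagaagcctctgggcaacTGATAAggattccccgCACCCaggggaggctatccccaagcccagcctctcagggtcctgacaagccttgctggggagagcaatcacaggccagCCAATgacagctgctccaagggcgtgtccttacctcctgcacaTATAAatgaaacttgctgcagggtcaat
Hbb: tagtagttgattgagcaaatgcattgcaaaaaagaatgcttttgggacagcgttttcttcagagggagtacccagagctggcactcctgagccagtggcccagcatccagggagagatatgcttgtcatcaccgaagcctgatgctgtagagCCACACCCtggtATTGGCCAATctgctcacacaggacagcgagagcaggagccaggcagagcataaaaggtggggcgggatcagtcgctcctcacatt
Alas2: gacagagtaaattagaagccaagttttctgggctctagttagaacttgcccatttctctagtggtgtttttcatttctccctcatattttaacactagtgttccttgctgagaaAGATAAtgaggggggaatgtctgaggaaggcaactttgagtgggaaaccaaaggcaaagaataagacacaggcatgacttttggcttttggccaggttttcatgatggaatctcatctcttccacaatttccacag
Rhd: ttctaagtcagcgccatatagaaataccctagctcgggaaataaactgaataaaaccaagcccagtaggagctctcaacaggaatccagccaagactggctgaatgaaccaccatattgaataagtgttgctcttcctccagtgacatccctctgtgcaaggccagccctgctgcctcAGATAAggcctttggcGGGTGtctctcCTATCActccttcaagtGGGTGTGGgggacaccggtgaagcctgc
Epb42: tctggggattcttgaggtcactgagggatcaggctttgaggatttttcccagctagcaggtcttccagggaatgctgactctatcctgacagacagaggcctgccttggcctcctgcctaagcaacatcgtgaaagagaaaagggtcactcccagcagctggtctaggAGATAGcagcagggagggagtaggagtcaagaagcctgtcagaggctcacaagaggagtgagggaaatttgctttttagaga

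A GATA form was found in 4 of the 5 windows, all but that of Hbb, and in 26.7% of all 27457 windows of the same length. It began 165 bases before the start of Hba-a1, 136 bases before that of Alas2, 72 bases before that of Rhd and 82 bases before that of Epb42. The window of Rhd held a further one on the opposite strand. CACCC occurred in 3 of the 5 windows, those of Hba-a1, Hbb and Rhd, against 49.4% of all windows. Its longer form CCACACCC, which contains CACCC, was in the windows of Hbb and Rhd and in 2.84% of all windows. CCAAT was in the windows of Hba-a1 and Hbb (34.3% of all), and TATAA in that of Hba-a1 (24.1% of all). The window of Hba-a1 was identical to that of its neighbouring copy Hba-a2 at 241 of 250 bases. The window of a further copy, Hba-a3, held no GATA form and no CACCC. The identifiers of the table do not settle which copy of GRCr8 its Hba-a1 is, and with the window of Hba-a3 the GATA count would be 3 of 5. These matches describe letters in these windows and not binding.

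Each of the 7 genes had a higher mean level in mcPCs. The log2 ratio of mean normalised counts, mcPCs over VSMCs, ran from 3.56 for Epb42 to 8.47 for Ahsp, with a median of 8.09, whereas the median over all genes was 0.01. Of all genes, 22.0% differed by at least 2-fold upwards in mcPCs on this measure and 13.9% downwards. Among the genes with at least 0.8 TPM (transcript abundance, a level corrected for length and scaled to a fixed total) in VSMCs, which include all 7, 13.1% were at least 2-fold higher. A log2 ratio of at least 8 was reached by 5 of the 7 genes and by 0.397% of all genes. Together the 7 genes held 40.8% of the TPM in mcPCs and 0.535% in VSMCs.

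**Figure D1:**
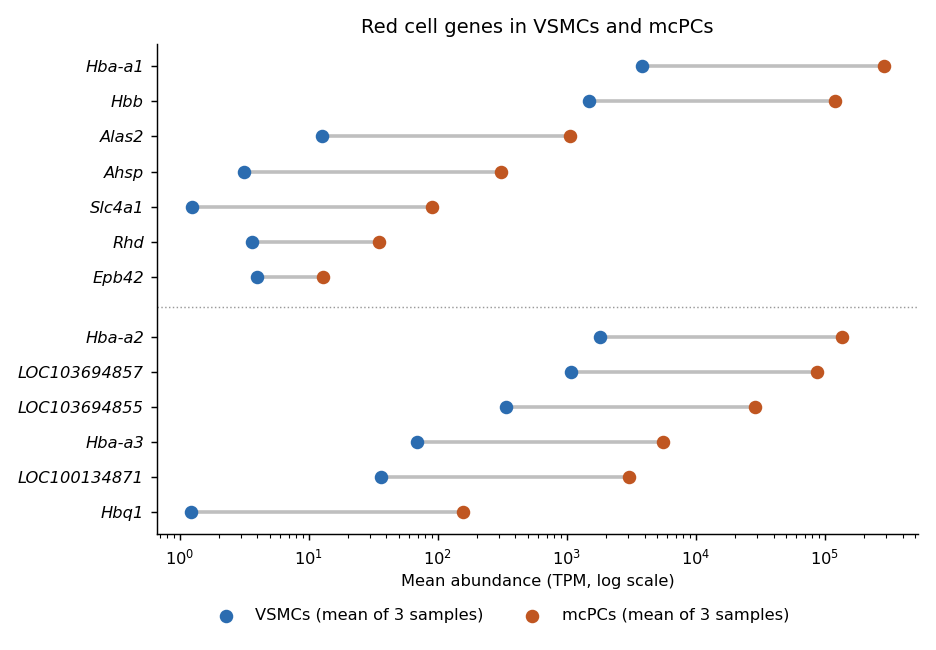
Mean abundance (TPM, log scale) of the 7 red cell genes, above the dotted line, and of the 6 other red cell globin genes, below it, in VSMCs (blue) and mcPCs (orange), each point a mean of 3 samples with no error available. Every gene lay to the right in mcPCs, and the gap was smallest for Rhd and Epb42.

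Hba-a1 (ENSRNOG00000029886), an alpha globin gene, had a mean of 286193 TPM in mcPCs against 3838 TPM in VSMCs. By TPM it ranked 1 of all genes in mcPCs and 26 in VSMCs. Over the 3 samples of a cell type it was assigned 161700 reads in VSMCs (95% interval 160913 to 162490) and 22604690 in mcPCs. The ratio of normalised counts was 272-fold (log2 8.09, interval 8.08 to 8.09).

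Hbb (ENSRNOG00000058105), a beta globin gene, reached 119434 TPM in mcPCs, where it ranked 3, against 1478 TPM in VSMCs. Its reads numbered 80969 in VSMCs and 12252410 in mcPCs, and its ratio was 296-fold (log2 8.21, interval 8.20 to 8.22). In VSMCs, too, both globins were among the abundant transcripts, with Hbb at rank 82.

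The other red cell globin genes showed the same pattern. Hba-a2 had 1810 TPM in VSMCs against 134707 TPM in mcPCs, and Hba-a3 68.9 against 5516 TPM. Among genes for beta chains, LOC103694857 had 1074 and 87351 TPM, LOC103694855 had 340 and 28915 TPM, and LOC100134871 had 36.0 and 3014 TPM. The log2 ratios of the 7 alpha and beta genes, Hba-a1 and Hbb included, ran from 8.08 to 8.30. Hbq1, the theta globin gene, had 1.23 and 157 TPM and a log2 ratio of 8.86 (interval 8.37 to 9.40), but it rested on 33 reads in VSMCs. Near-identical copies share reads, so the way Salmon divided them among single globin genes is uncertain, and sums over copies are less affected.

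Summed over copies, the 3 alpha genes had 426415 TPM in mcPCs and the 4 beta genes 238714 TPM. The ratio of alpha to beta was 1.79 in mcPCs and 1.95 in VSMCs. Of the 10 genes with the highest TPM in mcPCs 5 were globin genes, and none of the 10 in VSMCs. With the other globin genes added to the 7, the share of TPM was 66.9% in mcPCs and 0.869% in VSMCs. The 8 red cell globin genes alone took 39.7% of the assigned reads in mcPCs and 0.212% in VSMCs. Their share is larger in TPM because TPM divides by length, and the mean effective length of Hba-a1 was only 349 bases.

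Ahsp (ENSRNOG00000020165), the alpha globin chaperone, had 308 TPM in mcPCs against 3.12 TPM in VSMCs. Its log2 ratio of 8.47 was the highest of the 7, but with 140 reads in VSMCs (95% interval 118 to 165) against 24404 in mcPCs it was also the least precise (interval 8.23 to 8.72).

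Alas2 (ENSRNOG00000000167) had 1057 TPM in mcPCs against 12.7 TPM in VSMCs, from 368898 and 2359 reads. The ratio was 304-fold (log2 8.25, interval 8.19 to 8.31). Its level placed it at rank 33 in mcPCs but at rank 7286 in VSMCs. Alas1, the form of the enzyme found in most cells, had a log2 ratio of 0.55.

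Slc4a1 (ENSRNOG00000020951) had 89.4 TPM in mcPCs against 1.25 TPM in VSMCs, from 86212 and 660 reads, a ratio of 260.0-fold (log2 8.02, interval 7.91 to 8.14). The other membrane genes differed less between the cell types. Rhd (ENSRNOG00000017130) had 35.2 against 3.60 TPM, from 15422 and 856 reads, a ratio of 35.3-fold (log2 5.14, interval 5.04 to 5.24). Epb42 (ENSRNOG00000011649) had 12.9 against 3.96 TPM, from 11084 and 1846 reads, a ratio of 11.8-fold (log2 3.56, interval 3.49 to 3.63). The counting intervals of Rhd and Epb42 did not reach those of the other 5 genes. Whether the gap exceeds the spread between isolations could not be tested with means. In VSMCs the order of the low genes was Epb42, Rhd, Ahsp and Slc4a1, and in mcPCs it was Ahsp, Slc4a1, Rhd and Epb42.

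**Figure D2:**
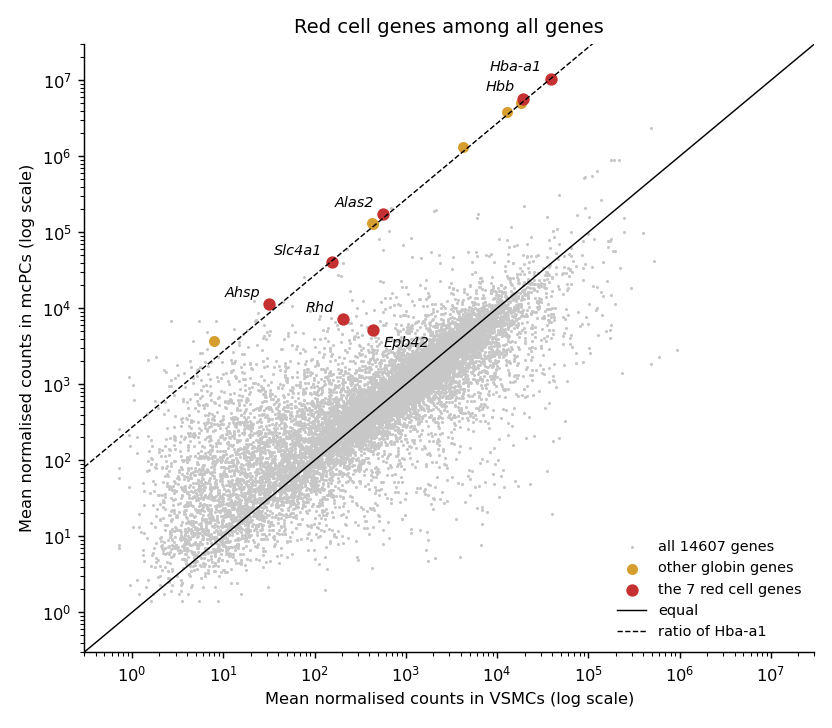
Mean normalised counts of all 14607 genes in VSMCs (x axis, log scale) and mcPCs (y axis, log scale), with the 7 red cell genes in red, the other globin genes in yellow, the line of equality and, dashed, the ratio of Hba-a1. The globin genes, Alas2, Ahsp and Slc4a1 lay along the dashed line, and Rhd and Epb42 between the lines.

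The proportions among the genes were then compared within each cell type. Hbb stood at 38.5% of the TPM of Hba-a1 in VSMCs and at 41.7% in mcPCs. For Alas2 these values were 0.332% and 0.369%, for Ahsp 0.0814% and 0.108%, and for Slc4a1 0.0325% and 0.0312%. These proportions were close in the 2 cell types although the normalised counts of these genes differed by 260.0-fold or more. For Rhd they were 0.0939% in VSMCs and 0.0123% in mcPCs, and for Epb42 0.103% and 0.0045%.

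The same can be put in reads. For this, each gene was given in VSMCs the proportion to Hba-a1, by assigned reads, that it had in mcPCs. Its reads would then have been 108% of those found for Hbb, 112% for Alas2, 125% for Ahsp and 93.5% for Slc4a1. For Rhd they would have been 110 of 856 reads, or 12.9%, and for Epb42 79.3 of 1846 reads, or 4.30%. Rhd and Epb42 thus had more reads in VSMCs than that proportion gives. The source of these reads was not tested.

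**Figure D3:**
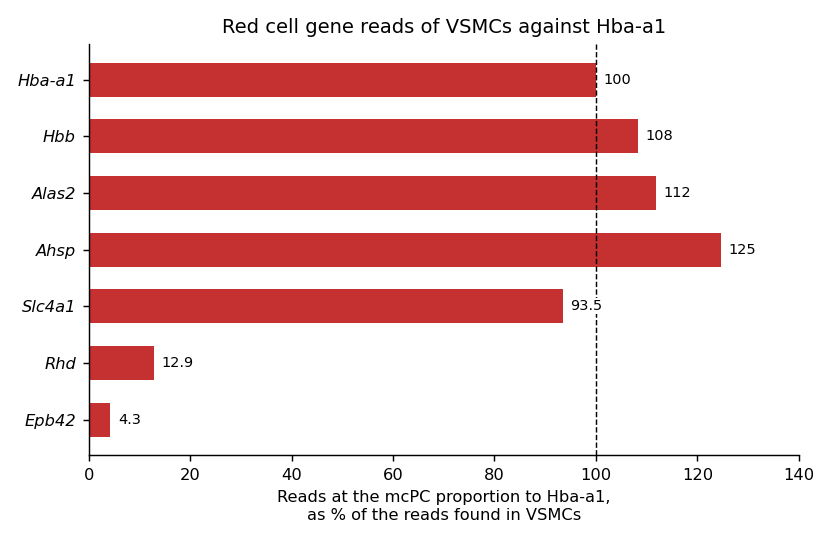
Reads that each gene would have in VSMCs at its mcPC proportion to Hba-a1, as a percent of the reads found there. Hbb, Alas2, Ahsp and Slc4a1 sat between 93.5% and 125%, Rhd at 12.9% and Epb42 at 4.30%.

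Further red cell genes were described from 7 lists, on haem synthesis, haem breakdown and export, iron supply, membrane and skeleton, transcription and signalling, enzymes, and reticulocyte maturation. Without the 7 genes and the globins the lists held 121 symbols, of which 102 were in the table. Of these 102 genes, 52 had at least 2-fold more normalised counts in mcPCs and 4 at least 2-fold lower, which is 51.0% higher against 22.0% of all genes, with a median log2 ratio of 1.11. On the TPM ratio, which lowers most genes in mcPCs, 35 were at least 2-fold higher and 47 at least 2-fold lower, against 7.0% and 72.3% of all genes. The counts of each list below are to be read beside these shares of all genes. A log2 ratio of at least 8 was reached by 5 of the 102, Add2, Alox15, Kel, Nfe2 and Rsad2, against 0.397% of all genes. Among the 87 with at least 0.8 TPM in VSMCs, 37 were at least 2-fold higher by normalised counts, against 13.1% of all such genes.

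In haem synthesis, 5 of 9 genes, Alas2 among them, were at least 2-fold higher by normalised counts and none lower, whereas by TPM 2 were higher and 4 lower. Next to Alas2 stood Fech, which inserts iron into the ring to complete haem, with 13.4 TPM in VSMCs and 53.9 in mcPCs (log2 ratio 3.87). Urod, an enzyme of the middle of the pathway, had a log2 ratio of 1.38 by normalised counts but -0.46 by TPM. In haem breakdown and export, 4 of 7 genes were higher and 1 lower by normalised counts, and 1 higher and 3 lower by TPM. Hmox1, which opens the haem ring, had a log2 ratio of 2.92 and Blvrb, a biliverdin reductase, 1.90. Flvcr2 had -3.23.

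Of 15 genes of iron supply, 7 were at least 2-fold higher and none lower by normalised counts. By TPM 3 were higher and 8 lower, where 7.0% of all genes were higher and 72.3% lower. Ftl1, a ferritin light chain, had 709 TPM in VSMCs and 1615 in mcPCs (log2 ratio 3.05). Slc40a1, the iron exporter ferroportin, had a log2 ratio of 3.78 and Glrx5, of iron-sulphur cluster assembly, 3.35. Fth1, the ferritin heavy chain, had 1.08 by normalised counts and -0.77 by TPM.

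Of the membrane and skeleton list, 25 of 32 genes were in the table, the members Slc4a1, Rhd and Epb42 among them, and 14 were at least 2-fold higher and 2 lower by normalised counts, and 12 higher and 10 lower by TPM. Add2, the beta adducin of the spectrin skeleton, had 0.299 TPM in VSMCs and 29.3 in mcPCs (log2 ratio 8.47), from 98 reads in VSMCs. Kel, of the Kell blood group, had a log2 ratio of 8.14, from 74 reads in VSMCs. The genes lower in mcPCs were Bcam, of the Lutheran blood group, with -1.64, and Stom, stomatin, with -1.49. Both were abundant in VSMCs, at 1707 and 885 TPM.

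Of the transcription and signalling list 13 of 17 genes were in the table, 8 of them at least 2-fold higher and none lower by normalised counts, and 6 higher and 5 lower by TPM. Nfe2, an erythroid and megakaryocytic factor, had 0.135 TPM in VSMCs and 17.1 in mcPCs (log2 ratio 8.83), from only 24 reads in VSMCs. Klf1, which acts on beta globin, had 0.334 and 13.8 TPM (7.23), from 51 reads in VSMCs. Tal1 had -0.62 and Ldb1 0.30. Of the red cell enzymes 6 of 12 genes were higher and 1 lower by normalised counts, and 5 higher and 6 lower by TPM. Alox15, the lipoxygenase of reticulocytes, had 11.9 and 975 TPM (log2 ratio 8.23), Bpgm, which makes the ligand that lowers oxygen affinity, 47.4 and 391 TPM (4.89), and Cyb5r3 had -1.95.

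Of 26 genes of reticulocyte maturation in the table, 13 were at least 2-fold higher and none lower by normalised counts, and 11 higher and 11 lower by TPM. Rnf10 had 114 TPM in VSMCs and 192 in mcPCs (log2 ratio 2.60), Mkrn1 28.9 and 131 TPM (4.04), and Bnip3l, which takes part in the removal of mitochondria, 37.4 and 103 TPM (3.32). Rsad2, an interferon-inducible gene, had the highest log2 ratio of the list, 8.04.

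**Figure D4:**
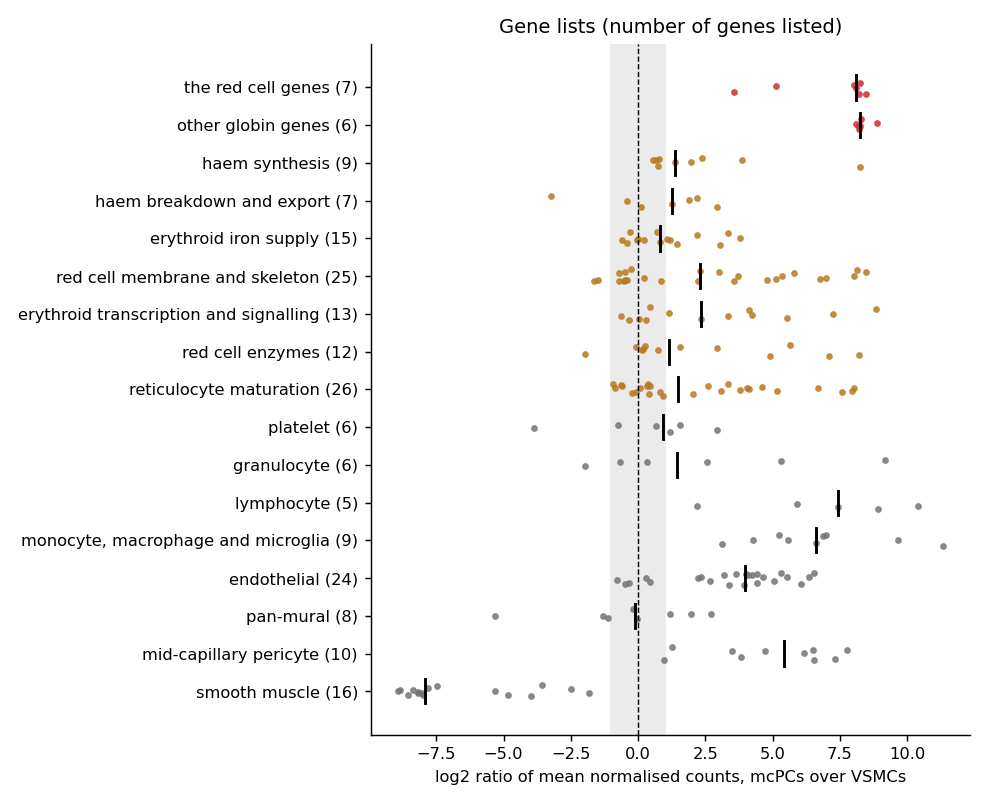
The log2 ratio of mean normalised counts, mcPCs over VSMCs, of each gene (points) in the lists, with the list's median (bar), the median of all genes (dashed) and ratios under 2-fold in grey. The 7 red cell genes (median 8.09) and the other globin genes (median 8.23) lay to the right of the medians of the 7 further red cell lists (0.82 to 2.35). Here the haem synthesis list includes Alas2, and the membrane and skeleton list includes Slc4a1, Rhd and Epb42. Smooth muscle genes lay at the left.

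The 15 genes with the highest ratios among those with at least 0.8 TPM in VSMCs comprised 5 of the 7 red cell genes, the 6 other globin genes and 4 further genes. The last were Lgals5 (log2 ratio 8.38), a galectin of rat erythrocytes, Alox15 (8.23), Cd52 (8.17), a surface antigen of lymphocytes, and Ucp2 (8.06), a mitochondrial carrier. Without the limit of 0.8 TPM, Hbq1 ranked 16 of all genes by ratio, Ahsp 29, Alas2 38, Hbb 44, Hba-a1 49 and Slc4a1 56. None of the 7 red cell genes and no other red cell globin gene was then among the 15 highest. Among genes outside the lists with at least 10 TPM in mcPCs, the 5 with the ratio nearest to that of Hba-a1 were Zap70 (8.08), Cd53 (8.08), RT1-Da (8.07), Ucp2 (8.06) and Hcls1 (8.02). The 4 apart from Ucp2 are known as genes of leukocytes, and in VSMCs they rested on 27 to 59 reads.

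Markers of other cells of blood also differed, counted here by normalised counts, on which 22.0% of all genes were at least 2-fold higher. Most of these markers lay below 0.8 TPM in VSMCs. At or above that level were 1 lymphocyte gene, 1 monocyte, macrophage and microglia gene, 2 platelet genes and 0 granulocyte genes. In each list but the granulocyte list 1 of those was at least 2-fold higher, against 13.1% of all such genes. The other platelet gene was at least 2-fold lower. All 5 listed of 18 lymphocyte genes were past 2-fold in favour of mcPCs, with a summed level of 6.42 TPM in VSMCs and 42.4 in mcPCs. Of these sums Klrd1 held 5.97 and 7.94 TPM, and its log2 ratio by TPM was 0.40. All 9 listed of 18 monocyte, macrophage and microglia genes were past 2-fold in favour of mcPCs too (2.10 and 97.2 TPM). For granulocytes 3 of 6 listed of 16 were higher and 1 lower (3.02 and 140 TPM), Lyz2 holding 131 TPM in mcPCs. Of 14 platelet genes 6 were in the table, 3 higher and 1 lower by normalised counts. By TPM none of the 6 was higher and 2 were lower, against 7.0% and 72.3% of all genes. The summed level of these platelet genes was 367 TPM in VSMCs and 12.3 in mcPCs, of which Nrgn, a gene also of neurons, held 360 and 7.38 TPM. Pf4, Ppbp and Gp9 of platelets, Cd3e and Cd79a of lymphocytes, and Gata1 of erythroid cells, had no row and were not analysed here. The part of leukocytes in the values of the red cell lists was not tested.

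Mural markers were listed too. The paper names some of them, such as Abcc9, Ptn, Myh11 and Casq2, as specific to a cell type from these same data. These lists therefore cannot check the labels. By normalised counts all 16 smooth muscle genes were past 2-fold in favour of VSMCs, against 13.9% of all genes (66986 TPM summed in VSMCs, 489.9 in mcPCs). Of 10 pericyte genes 9 passed 2-fold towards mcPCs, against 22.0% of all genes. The 8 pan-mural genes were split, with 3 past 2-fold in each direction. By TPM 0 of these 8 passed it towards mcPCs and 5 towards VSMCs (7.0% and 72.3% of all genes). Of the 24 endothelial genes with values, 19 were past 2-fold in favour of mcPCs by normalised counts (22.0% of all genes) and 15 by TPM (7.0% of all genes), with 5 lower by TPM, summing to 847 TPM in VSMCs and 734 in mcPCs.

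The direction of the difference did not depend on the scaling. For each of the 7 genes the log2 ratio was above 1 under all 6 alternatives, 42 values from 1.48 to 8.55. The size depended on it. On the TPM ratio the median of all genes was -1.72 and the median of the 7 genes 6.22, which is 7.94 above it. By normalised counts the distance was 8.07.

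**Figure D5:**
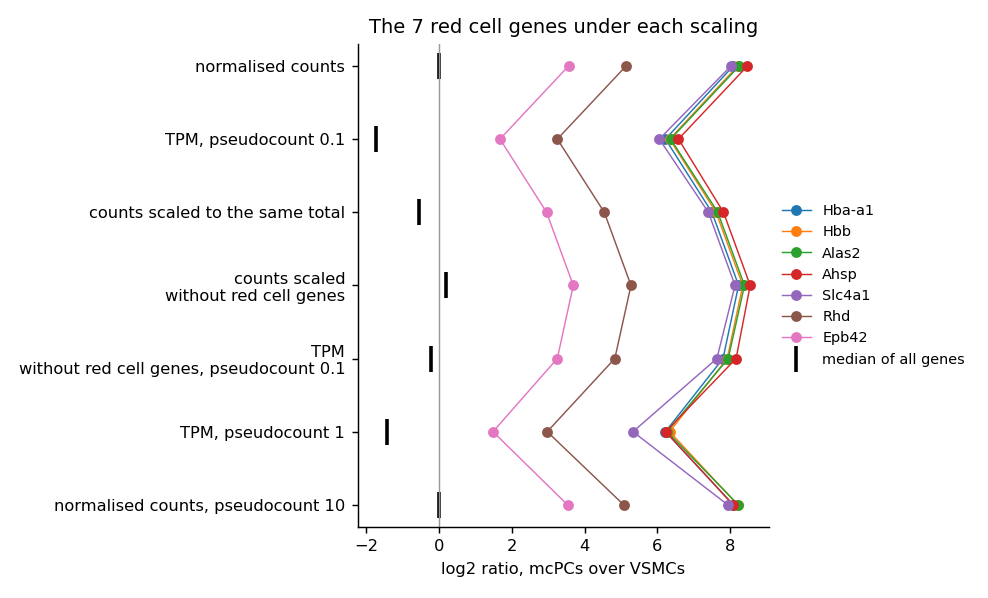
The log2 ratio (x axis) of the 7 red cell genes under the authors' normalisation and 6 alternatives, with the median of all genes as a black bar. All values lay above 1, Rhd and Epb42 stayed below the other 5 genes under every scaling, and the median of all genes moved between -1.72 and 0.18.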

How the data were processed

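RNA-Seq of polyadenylated RNA (100 ng of total RNA per sample, RNA integrity numbers 6.40 to 8.50) was carried out by the authors on 3 VSMC and 3 mcPC samples with a stranded kit and single-end reads, each library in 4 runs. They trimmed and filtered reads with Eoulsan, quantified them with Salmon 0.8.0 against Ensembl cDNA sequences (build Rnor_6.0), brought them to gene level with tximport and normalised them with DESeq2. Only genes detected in all 6 samples were kept. The deposited table holds means over a cell type. TPM values are the authors' mean abundances. Estimated counts were read as the authors' means per run and multiplied by 12 runs, which the labels do not state. Over all genes, 69.8% (VSMCs) and 71.5% (mcPCs) of the mean counts are whole multiples of 1 read over 12, within 0.01. The deposited normalised counts are signal values, counts divided by normalisation factors of DESeq2. Mean effective lengths were deposited too. The authors' 4 comparison columns (log2 fold change, its standard error, p and adjusted p) were not used.

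The assigned reads averaged 62.0 M (M, 1e6) in a sample of VSMCs and 48.0 M in one of mcPCs. Log2 ratios were taken of the mean normalised counts, without pseudocount, or of TPM with a pseudocount of 0.1. Differences were counted from 2-fold. Intervals are exact Poisson intervals for reads and exact binomial intervals for ratios, and cover counting error only. Tests on values per sample, which had been planned in case the table held any, were not run. Only the log2 ratios of normalised counts, and of counts scaled without the raised genes, were tested on simulated data. The simulation used the same normalisation factor for both cell types, unlike these data. Intervals, lists and the promoter search were not tested in this way.

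The members and lists were chosen with earlier results of these data known. Named were the 7 genes, all listed globins, from each list up to the 3 genes of highest mcPC TPM and those of highest and lowest ratio, the 15 highest ratios with at least 0.8 TPM in VSMCs, and the 5 genes nearest in ratio to Hba-a1. Alas1, the counterpart of Alas2, is the lowest of its list by ratio. Promoter windows were taken from RefSeq GRCr8 and matched by symbol, because the table's other identifier for Hba-a1 belongs to another copy there. Alternatives were other scalings, pseudocounts, a filter and a fold limit. Calculations were made in Python 3.11.15 with scipy 1.17.1, pandas 2.3.3 and numpy 2.4.6, and plots with matplotlib 3.10.9.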

Additional observations from a re-analysis of the deposited data

How the results depend on the processing

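The 7 genes were past 2-fold in favour of mcPCs under each of the 6 other scalings and pseudocounts, and also past 4-fold by normalised counts. Their median log2 ratio, 8.09 in the report, was 6.22 on TPM with a pseudocount of 0.1, 6.22 on TPM with 1, 7.50 on counts scaled to the same total, 8.23 on counts scaled without the red cell genes, 7.80 on TPM scaled without them and 8.08 on normalised counts with a pseudocount of 10. The share of all genes at least 2-fold higher, 22.0%, was 13.1% among genes with at least 0.8 TPM in VSMCs. The share held by the 7 genes, 40.8% of TPM in mcPCs and 0.535% in VSMCs, was 24.6% and 0.134% by counts, and 66.9% and 0.869% of TPM with the other globins. Hbb was 41.7% of Hba-a1 in mcPCs by TPM and 54.2% by counts, which are not divided by length. Of the 102 further red cell genes, 52 were at least 2-fold higher by normalised counts, against 22.0% of all genes. Among the 87 with at least 0.8 TPM in VSMCs, 37 were so, against 13.1% of all such genes. The other scalings were chosen after the data were seen. Of the 102, they gave 32 on TPM with a pseudocount of 1, 35 on TPM with 0.1 and 45 on counts to the same total. They gave 54 and 49 on counts and TPM without the red cell genes, and 52 with a pseudocount of 10. The share of all genes was 7.0% on TPM with 0.1, and for the other scalings no such share is given. Leaving out each replicate was not run, because the table gives means. No paired analysis was possible because the values of the isolations, which a VSMC and a mcPC sample share, are not separate in the means. Genes with under 100 reads in VSMCs, such as Hbq1, are limited by depth.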

Other observations

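Globins outside red cells behaved otherwise. Ngb, the globin of neurons, had 22.7 TPM in VSMCs against 0.200 TPM in mcPCs, on 5811 and 95 reads (log2 ratio -5.05). Cygb, a globin of fibroblast-like cells, had a log2 ratio of 0.94 by normalised counts and -0.71 by TPM.

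Markers of brain cells were at low summed TPM in both cell types, but by normalised counts most were at least 2-fold higher in mcPCs. These were 6 of 7 astrocyte genes (median log2 ratio 3.27), 8 of 9 neuron genes (4.28) and 7 of 8 genes of the oligodendrocyte lineage (1.87), against 22.0% of all genes. By TPM 3, 6 and 2 of them were at least 2-fold higher, against 7.0% of all genes. Most of these markers lay below 0.8 TPM in VSMCs. At or above that level were 1 astrocyte gene, 3 neuron genes and 3 genes of the oligodendrocyte lineage. By normalised counts 0, 2 and 2 of those were at least 2-fold higher, against 13.1% of all such genes. The remaining neuron gene was at least 2-fold lower. The 7 astrocyte genes in the table summed to 14.8 TPM in VSMCs and 22.8 in mcPCs, 9 neuron genes to 13.6 and 29.2 TPM, and 8 genes of the oligodendrocyte lineage to 20.4 and 21.8 TPM. Laptm5, a lysosomal gene of leukocytes, had the highest log2 ratio of the marker lists of blood cells, 11.34, from 12 reads in VSMCs and 15491 in mcPCs. Ptprc, the pan-leukocyte antigen CD45, had 36.2 and 15346 reads (9.66). Among lymphocyte genes Cd8a had 4 and 2819 reads (10.39).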
